A study of Mus musculus with 27 samples.

Results

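Fibrotic-like assembloids are mouse liver cultures in which hepatocyte organoids (HepOrgs) were joined with bile duct cells (cholangiocytes) and an excess of portal mesenchymal cells. Here they were compared with HepOrgs kept without added cells in the same minimal medium (MM). By label, both groups had 7 days of culture. By their labels, 3 libraries belonged to the fibrotic-like assembloids and 3 to the MM HepOrgs, so the comparison used 6 of the 27 libraries of the series and all genes of the table. HepOrgs were grown from primary hepatocytes in HM-Wnt, a hepatocyte expansion medium with growth factors and Wnt-conditioned medium. They were moved to MM at passage 2. The study reports that stray cholangiocyte organoids or mesenchyme sometimes occurred in HepOrg cultures up to that passage and were picked out by hand. The HepOrg libraries may therefore hold some RNA of other cells. MM held a basal medium with B27 and N-acetylcysteine, Wnt-conditioned medium and the ROCK inhibitor Y-27632, in both groups. For the fibrotic-like cultures, 10 HepOrgs, 1000 cholangiocytes and 2500 mesenchymal cells were rocked together and then embedded in Matrigel. The rocking was done in MM, and some HepOrgs were kept in MM before it. The total time in MM may therefore differ between the groups. The homeostatic assembloids of the series received 250 mesenchymal cells and the same numbers of HepOrgs and cholangiocytes.

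Both groups were labelled WT on a C57BL/6 background. According to the study's methods, however, the cholangiocytes of assembloids generally came from mice with nuclear tdTomato and the mesenchyme from sorted PDGFRα–H2B–GFP+ SCA1+ cells, so that fluorescent transgenes can be present in assembloids. The model holds no added endothelial or immune cells. Neither the labels nor the methods say whether the libraries of a group came from separate cultures or animals, and the p-values therefore measure the spread between these libraries, which may be technical. Depth ranged from 41178058 to 58815016 counts in the HepOrg libraries and from 38218834 to 65348596 in the fibrotic-like libraries, with 15124 to 15848 genes holding a count.

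In the liver, portal fibroblasts lie around the bile ducts and, in chronic biliary disease, deposit fibrillar collagen and other matrix. Cholangiocytes line the ducts, carry the keratins Krt7 and Krt19, and can signal to the mesenchyme through integrins, chemokines and growth factors. Hepatocytes make most plasma proteins, synthesise bile acids and export them into canaliculi, and their transcripts decline in many forms of injury. In these bulk libraries fewer cells of a type and less RNA per cell cannot be told apart, and the added cells change the mix by design.

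The libraries differed in how much of each cell type's RNA they held. Levels are given throughout as CPM, that is counts scaled to library size with TMM factors, in the order of replicates 1, 2 and 3. The summed level of 10 hepatocyte markers used by the study was 89128, 75462 and 27820 in the HepOrgs and 24884, 29589 and 3887 in the fibrotic-like assembloids. HepOrg replicate 3 thus held less hepatocyte marker RNA than its partners, and fibrotic-like replicate 3 held the least of all. The 6 cholangiocyte markers summed to 69.7, 114 and 145 in HepOrgs and to 1376, 426 and 5511 in the fibrotic-like libraries. The 9 mesenchyme markers summed to 296, 143 and 148 against 2780, 6397 and 794. On this scale fibrotic-like replicate 2 had the highest mesenchyme sum and replicate 3 the highest cholangiocyte sum, with replicate 1 between them for both. The hepatocyte sums had the library order of the mesenchyme sums, and the cholangiocyte sums had the reverse order. Among these 3 libraries, a gene that followed 1 of the sums therefore cannot be tied to 1 cell type. On the TPM scale the mesenchyme sums were 1483, 2929 and 2471, so that replicate 1 was the lowest and replicate 3 lay near replicate 2. Of the 9 mesenchyme markers, Ly6a had the highest mean TPM, and its CPM was highest in fibrotic-like replicate 3. Col1a1, Col3a1 and Pdgfrb had their lowest fibrotic-like CPM in that library.

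**Figure D1:**
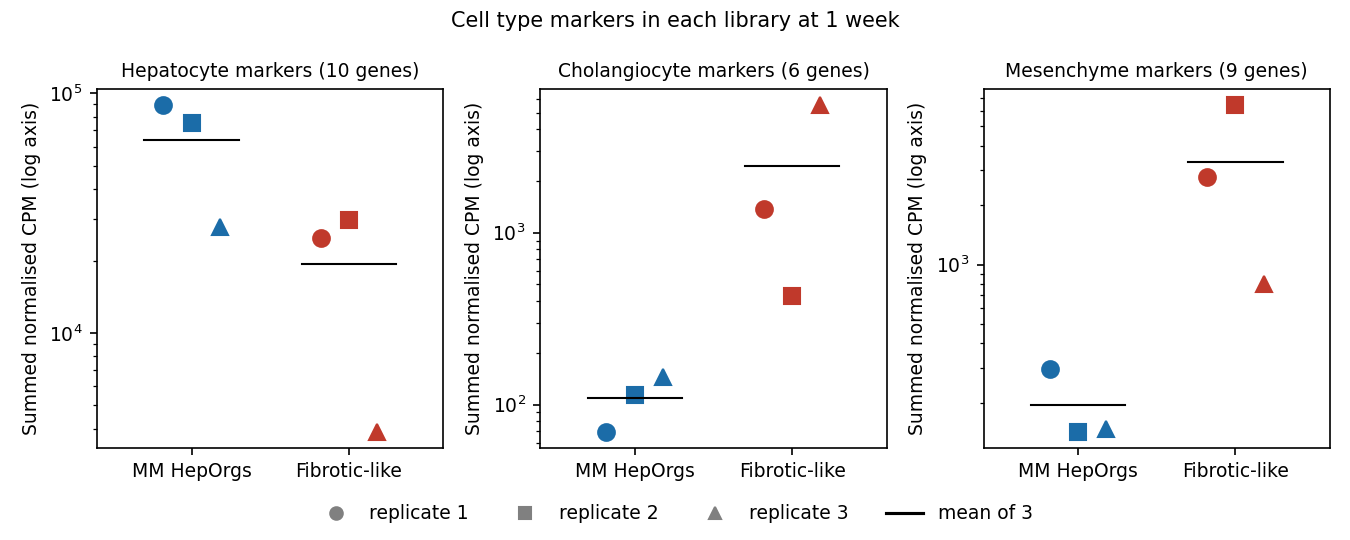
Summed CPM of the hepatocyte, cholangiocyte and mesenchyme markers (log axis) in each of the 3 MM HepOrg and 3 fibrotic-like libraries. Each point is 1 library and shows that cholangiocyte and mesenchyme sums did not overlap between the groups, whereas the hepatocyte sum of HepOrg replicate 3 (27820) lay below that of fibrotic-like replicate 2 (29589).

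Reporter transcripts appeared only in the assembloids of this comparison. Both eGFP and tdTomato had 0 counts in all 3 MM HepOrg libraries. In the fibrotic-like libraries eGFP had 1647, 3915 and 40767 counts and tdTomato 1264, 107 and 489. The eGFP level was highest in replicate 3, where the mesenchyme marker sum was the lowest of the group in CPM but not in TPM, while tdTomato was highest in replicate 1. What the eGFP of that library marks was not tested.

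Of 13467 genes tested, 1972 (14.6%) were higher and 1466 (10.9%) lower in fibrotic-like assembloids at an adjusted p under 0.05 (edgeR quasi-likelihood test with Benjamini-Hochberg adjustment, used for every adjusted p below). Without regard to a test, 3533 genes (26.2%) were higher and 3309 (24.6%) lower in all 3 fibrotic-like libraries than in any HepOrg library. The median log2 fold change over all genes was 0.09. On the deposited TPM values, as log2(TPM + 1), it was 0.73, and 89.7% of the called genes were higher against 57.4% on counts, so that a fall on the count scale was measured against a different centre. The count of 3438 genes also rested on each library: it was 391, 546 and 1662 without HepOrg replicate 1, 2 or 3, and 933, 3208 and 4086 without fibrotic-like replicate 1, 2 or 3. With the 3 homeostatic assembloid libraries added to the fit, no gene passed, 1512 genes had an unadjusted p under 0.05, and every call named below was lost. Without homeostatic replicate 2, a library with only 8465 detected genes, that larger fit called 3284 genes.

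The genes that differed most, among well expressed genes whose libraries did not overlap, were named by size of change, 5 in each direction. Mgp, which encodes matrix Gla protein, an inhibitor of calcification (chr6:136849433-136852821, GRCm39), had 0.049, 0.468 and 0.17 CPM in HepOrgs and 265, 148 and 80.7 CPM in fibrotic-like assembloids (log2 fold change 9.57, SE 0.91, adjusted p = 0.00511). It was followed by Sprr2a3 (9.47), a small proline-rich protein of stressed epithelia, the eosinophil chemokine Ccl11 (9.31), mesothelin (Msln, 9.27) and periostin (Postn, 8.44). Sprr2a3 had 0.147, 0.201 and 0.17 CPM in HepOrgs and 16.3, 1.01 and 343 CPM in fibrotic-like assembloids (SE 2.36, adjusted p = 0.0323). Without fibrotic-like replicate 3 its log2 fold change was 5.65. It did not pass with the replicate number as a block in the fit (adjusted p = 0.0632). At the other end stood Hamp, which encodes hepcidin, the iron-regulating peptide (−9.46), the urinary proteins Mup7 (−6.57) and Mup22 (−6.03), and the carboxylesterases Ces1f (−4.75) and Ces1d (−4.61). The Sprr2, Mup and Ces1 genes have near-identical neighbours that can share reads, and their values are uncertain for single members. All 10 genes passed without fibrotic-like replicate 3, and 4 passed without HepOrg replicate 1.

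Hepatocyte transcripts were lower as a group, but few of the classic markers passed the test. All 10 hepatocyte markers had a negative log2 fold change (median −2.06), and 2 of 10 passed. Gpx1, a selenium-dependent peroxidase, had 3252, 2682 and 1756 CPM in HepOrgs and 788, 671 and 375 CPM in fibrotic-like assembloids (log2 fold change −2.05, SE 0.42, adjusted p = 0.0198). Abcb4, the canalicular phospholipid flippase also called Mdr2 (chr5:8943604-9011999), had 475, 302 and 345 against 74.4, 110 and 16.5 CPM (−2.47, SE 0.65, adjusted p = 0.0375). Both genes were lower in every fibrotic-like library than in any HepOrg library.

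The remaining 8 markers did not pass. Albumin (Alb, chr5:90608647-90624696) had 17648, 12315 and 12119 CPM in HepOrgs and 5568, 9208 and 730 CPM in fibrotic-like assembloids. These groups did not overlap, yet the log2 fold change of −1.43 had an SE of 0.87 and an adjusted p of 0.255. The other non-passing markers were the haem carrier Hpx (−1.92), the thyroid hormone carrier Ttr (−2.68), the apolipoproteins Apoa1 (−0.83) and Apoc1 (−2.07), Mup20 (−2.19), the xenobiotic cytochrome Cyp3a11 (−2.81) and the nuclear receptor Hnf4a (−0.53), with adjusted p-values from 0.0683 to 0.557. Apoa1 and Hnf4a took the opposite sign on the TPM scale (0.15 and 0.38). Without fibrotic-like replicate 3, 4 of the 10 markers passed, and without replicate 1, none.

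Genes for secreted plasma proteins fell in larger number. Of 32 tested, 12 were lower and none higher, and all 32 had a negative log2 fold change (median −2.13). Complement C3 had 11818, 10017 and 6651 CPM in HepOrgs and 1493, 1526 and 878 in fibrotic-like assembloids (−2.85, SE 0.47, adjusted p = 0.0126). Fetuin B (Fetub, −2.98) and the clotting factors F10 (−2.86) and F12 (−2.66) were called as well. The most abundant members did not pass: transferrin (Trf) had 93952, 97608 and 71347 CPM against 34877, 51281 and 6234 CPM (adjusted p = 0.292), and haptoglobin (Hp) and fibrinogen beta (Fgb) had adjusted p-values of 0.0852 and 0.0592. Of 22 acute phase and IL-6 response genes, 6 were lower and none higher (median −1.86).

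Hamp showed the sharpest contrast among acute phase genes. It had 1227, 105 and 8480 counts in HepOrgs and 8, 6 and 7 counts in fibrotic-like assembloids, so the HepOrg libraries differed greatly among themselves while the fibrotic-like libraries were uniformly near 0 (−9.46, SE 1.74, adjusted p = 0.016). The orosomucoids Orm1 (−2.67) and Orm2 (−3.06), which are close paralogues, and the inter-alpha-trypsin inhibitor chain Itih4 (−2.59) also fell. Of the 8 secreted protein genes named here that passed, 8 did so without fibrotic-like replicate 3, and 1 did so without fibrotic-like replicate 1 or without HepOrg replicate 1.

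Sugar and lipid metabolism showed the highest share of lower calls among the hepatocyte lists, with 17 of 22 genes lower, none higher and a median of −2.45. The glucose phosphatase G6pc, the last enzyme of glucose release, had 312, 196 and 193 CPM in HepOrgs and 9.66, 12.8 and 13.9 CPM in fibrotic-like assembloids (chr11:101258369-101268729, −4.25, SE 0.30, adjusted p = 0.00428). Pyruvate carboxylase (Pcx, −3.19), ketohexokinase (Khk, −3.17) and fatty acid synthase (Fasn, −3.05) fell too. The desaturase Scd1 had 28687, 50742 and 16539 CPM against 6759, 8521 and 1740 CPM, which did not pass (adjusted p = 0.0721). In the drug metabolism list 11 of 22 genes were lower and none higher (median −2.49), among them the glucuronosyltransferase Ugt2b1 (−3.06) and the aldehyde oxidase Aox3 (−3.05), while Gstm1, a glutathione transferase, did not pass (−1.61, adjusted p = 0.13).

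Of 16 urea cycle and amino acid genes 1 was lower, the homogentisate dioxygenase Hgd (−2.33, adjusted p = 0.0295), a share of 6.25% against 10.9% of all genes. Their median was −1.18 with 14 of 16 fold changes negative, and 6 were lower with DESeq2, 4 with the replicate number as a block in the fit and 4 without fibrotic-like replicate 3. Nags, which makes the activator of the urea cycle, had 87.4, 82.2 and 70.6 CPM in HepOrgs and 21.8, 30.9 and 3.24 CPM in fibrotic-like assembloids (adjusted p = 0.0725). Of the 9 metabolic genes named here that passed, 9 did so without fibrotic-like replicate 3 and 6 without replicate 1.

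Bile acid handling changed on both the synthesis and the transport side. Cyp7a1, the rate-limiting enzyme of the classical bile acid pathway (chr4:6265612-6275633), had 23.2, 38.6 and 8.19 CPM in HepOrgs and 0.527, 1.39 and 0 CPM in fibrotic-like assembloids (−5.18, SE 1.37, adjusted p = 0.0379). The sterol hydroxylase Cyp27a1 (−2.54), the bile acid ligase Slc27a5 (−3.11) and the peroxisomal thiolase gene Scp2 (−2.78) were lower as well, and 7 of 13 synthesis genes fell in all (median −2.32, none higher). Without fibrotic-like replicate 1, 1 of the 13 passed.

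Among 16 transport genes, 6 were lower (37.5%, against 10.9% of all genes) and 2 higher (12.5%, against 14.6%), with a median of −1.60. The basolateral uptake carriers Slco1b2 and Slc10a1 (NTCP) fell by 3.66 and 3.51 on the log2 scale. The canalicular bile salt export pump Abcb11 had 121, 114 and 50.3 CPM in HepOrgs and 11.2, 13 and 8.52 CPM in fibrotic-like assembloids (chr2:69068544-69173315, −3.11, SE 0.39, adjusted p = 0.00787). Abcc4, a basolateral exporter known from cholestatic liver, moved the other way, with 16.6, 34.5 and 70.5 against 155, 143 and 127 CPM (1.83, SE 0.50, adjusted p = 0.0404). Abcb1a, a broad drug exporter, was higher by 1.29. The study reported higher Abcb4, Abcc2 and Abcc3 in hepatocytes of periportal assembloids whose canaliculi joined the bile duct. The present values are from whole fibrotic-like cultures and cannot be set directly beside that. In them Abcc3 fell by 1.34 (adjusted p = 0.0117), and Abcc2 had 290, 316 and 360 against 149, 153 and 22.9 CPM, which did not pass (adjusted p = 0.115). On the TPM scale Abcc3 had −0.42 and did not pass (adjusted p = 0.165, limma). Of the 11 bile acid genes named that passed, 10 did so without fibrotic-like replicate 3, and 2 without HepOrg replicate 1 or 2.

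Of 18 hepatocyte transcription factors, 8 were lower (44.4%) and 1 was higher (5.56%, against 14.6% of all genes), 15 of the 18 fold changes were negative and the median was −1.33. Without fibrotic-like replicate 1, 1 was lower. The xenobiotic receptors Nr1i3 (−3.43) and Nr1i2 (−2.18), the fatty acid sensor Ppara (−2.70) and Onecut1 (−2.38) fell. Onecut1 had 23.6, 25.1 and 23.3 CPM in HepOrgs and 4.75, 6.02 and 2.91 CPM in fibrotic-like assembloids. Its paralogue Onecut2 rose from 63, 77.7 and 85.4 to 144, 116 and 227 CPM (1.13, SE 0.29, adjusted p = 0.0365). For neither gene did the groups overlap, and they moved in opposite directions.

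Wnt signalling maintains the pericentral genes of the liver, and both groups were kept with Wnt-conditioned medium. Of 12 Wnt target genes 2 were lower and none higher (16.7% lower, against 10.9% of all genes, median −0.51), with 6 positive and 6 negative fold changes. Glutamine synthetase (Glul) had 150, 116 and 242 CPM against 30.3, 30.4 and 36.5 CPM (−2.36, SE 0.30, adjusted p = 0.00797), and Tbx3 fell by 2.39. Cyp2e1, the pericentral ethanol-oxidising cytochrome, had 1577, 1334 and 299 CPM in HepOrgs and 12.7, 23.1 and 0 CPM in fibrotic-like assembloids and did not pass (adjusted p = 0.0537). Without fibrotic-like replicate 3 its adjusted p was 0.0097. Of the 7 transcription factor and pericentral genes that passed, 2 did so without HepOrg replicate 1, 2 or 3 or without fibrotic-like replicate 1.

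Bile duct genes rose. Of the 6 cholangiocyte markers 4 were higher (66.7%, against 14.6% of all genes), with a median of 3.85. Krt19 (chr11:100031636-100039491) had 3.72, 14.7 and 9.72 CPM in HepOrgs and 307, 93.9 and 1144 CPM in fibrotic-like assembloids (log2 fold change 5.80, SE 1.11, adjusted p = 0.0177). Krt7 (chr15:101308924-101328194) had 1.37, 16.8 and 3.5 against 462, 101 and 2872 CPM (7.33, SE 1.72, adjusted p = 0.0282). Both keratins were lowest in fibrotic-like replicate 2 and highest in replicate 3, and neither overlapped with the HepOrgs. The adhesion molecule Epcam (4.10) and the microvillus linker Ezr (3.56) rose with them.

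The duct transcription factor Sox9 did not follow the keratins. It had 34.1, 43.4 and 33.9 CPM in HepOrgs and 74.3, 48.5 and 27.9 CPM in fibrotic-like assembloids, so the groups overlapped (0.45, SE 0.35, adjusted p = 0.359). Prom1, a progenitor surface protein, had 1.86, 6.15 and 40 against 208, 33 and 328 CPM and overlapped too (adjusted p = 0.0838). Of 15 further cholangiocyte genes, 7 were higher and none lower (median 2.54). The chloride channels Ano1 (6.29) and Cftr (3.94), the water channel Aqp1 (4.91) and the mucin Muc1 (4.36) were among them. Spp1 (osteopontin), which cholangiocytes express strongly in tissue, was abundant in both groups, at 11495, 11452 and 4163 CPM against 11813, 12286 and 4388 CPM (adjusted p = 0.931). Of the 8 duct genes that passed, 8 did so without fibrotic-like replicate 3, 3 without replicate 1, 1 without HepOrg replicate 1, and none without HepOrg replicate 2 or 3.

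Of 24 keratin, claudin and junction genes 9 were higher (37.5%, against 14.6% of all genes) and 3 lower (12.5%, against 10.9%), with a median of 1.23. None of the 24 was called lower without fibrotic-like replicate 1, with the replicate block or on log2(TPM + 1), and 1 was called higher without replicate 1. The epithelial splicing factor Esrp1 (5.42) and the transcription factor Grhl2 (5.33), which hepatocytes largely lack, rose from at most 28 counts in a HepOrg library. The simple epithelial keratins Krt8 and Krt18, which all liver epithelium expresses, rose by 1.49 and 1.44. Krt18 had 1324, 1480 and 1489 CPM in HepOrgs and 4377, 3314 and 3801 CPM in fibrotic-like assembloids. Cldn14 (−1.90) and Tjp3 (−1.16), tight junction genes, were among the 3 lower genes.

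Of 18 integrins, which bind matrix, 8 were higher (44.4%, against 14.6% of all genes), 1 was lower (5.56%, against 10.9%) and 9 did not pass. Their median was 1.69, and 4 were higher without fibrotic-like replicate 1. The collagen receptor subunit Itga2 rose by 4.12, and Itgb6, whose heterodimer can activate latent TGF-β, rose by 4.06. The laminin receptor subunits Itgb4 (3.10) and Itga3 (2.18) were higher. Itgb1, the shared beta subunit (chr8:129411876-129460618), had 142, 122 and 187 CPM in HepOrgs and 439, 350 and 651 CPM in fibrotic-like assembloids (1.70, SE 0.31, adjusted p = 0.016). The lower gene was Itga7, with 33.9, 28.1 and 85.8 against 4.82, 8.35 and 0.839 CPM (−3.38). Of the 12 epithelial and integrin genes that passed, 11 did so without fibrotic-like replicate 3, 3 without replicate 1 and none without HepOrg replicate 1 or 2.

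The Notch and YAP pathways both include genes that instruct bile duct fate. Of 12 Notch genes, 3 were higher and none lower (25% higher, against 14.6% of all genes, median 1.92). They were the ligand Jag1 (2.90), and the targets Hes1 (2.29) and Heyl (5.47). Jag1 had 4.58, 4.58 and 7.68 CPM in HepOrgs and 36.4, 25.7 and 61.5 CPM in fibrotic-like assembloids. Of 13 targets of YAP, the coactivator that responds to mechanical load, 9 were higher and none lower (69.2%, median 1.85). Ccn2 (connective tissue growth factor, chr10:24471333-24474900) had 25.2, 26 and 23 CPM against 516, 182 and 1229 CPM (4.72, SE 0.73, adjusted p = 0.011). It was thus nearly constant among HepOrgs. Among the fibrotic-like libraries it had the order of the cholangiocyte marker sum, the reverse of the mesenchyme and hepatocyte sums in CPM. Fjx1 (6.11), Ankrd1 (4.52), the receptor tyrosine kinase Axl (4.01) and Ccn1 (1.85) rose. Of these 8 Notch and YAP genes, 7 passed without fibrotic-like replicate 3, 4 without replicate 1 and 2 without HepOrg replicate 1.

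YAP acts through TEAD factors, which bind the 6 letters GGAATG or the reverse, CATTCC. In RefSeq promoters of GRCm38.p6 (250 bases before to 50 after the start), 4817 of 32851 (14.7%) held this motif on either strand. Of the 14 YAP targets listed, 9 were matched in the promoter table by symbol and 7 of these held it. The promoters of 3 genes described above are shown in their own strand with the motif in capitals, to set the sequence beside the response. Ankrd1 lay at chr19:36119795-36120094 on the minus strand, Axl at chr7:25788684-25788983 on the minus strand and Ccn1 at chr3:145649936-145650235 on the minus strand.
Ankrd1: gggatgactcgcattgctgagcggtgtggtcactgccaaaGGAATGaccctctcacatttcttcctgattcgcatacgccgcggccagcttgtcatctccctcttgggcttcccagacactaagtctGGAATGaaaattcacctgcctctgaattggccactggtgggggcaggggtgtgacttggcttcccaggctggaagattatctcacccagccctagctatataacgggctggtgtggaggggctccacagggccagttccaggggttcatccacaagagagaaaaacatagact
Axl: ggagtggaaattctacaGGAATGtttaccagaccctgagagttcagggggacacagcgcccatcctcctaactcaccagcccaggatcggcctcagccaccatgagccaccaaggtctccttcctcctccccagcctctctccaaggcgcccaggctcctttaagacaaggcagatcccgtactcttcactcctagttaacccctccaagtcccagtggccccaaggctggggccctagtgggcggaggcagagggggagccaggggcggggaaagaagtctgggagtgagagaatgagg
Ccn1: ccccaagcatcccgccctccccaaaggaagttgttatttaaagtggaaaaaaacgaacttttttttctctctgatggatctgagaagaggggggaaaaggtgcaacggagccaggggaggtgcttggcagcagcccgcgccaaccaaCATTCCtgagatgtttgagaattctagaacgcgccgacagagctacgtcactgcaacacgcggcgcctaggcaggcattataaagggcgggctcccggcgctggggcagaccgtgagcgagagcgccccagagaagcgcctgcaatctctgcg
Ankrd1 held 2 matches, as 1.36% of all promoters did with 2 or more, and Axl and Ccn1 held 1 each. A match is a description of letters, and binding was not measured.

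Mesenchyme markers rose, and in CPM the collagen genes among them and Pdgfrb were lowest of the fibrotic-like group in replicate 3. Of 9 markers, 6 were higher and none lower (66.7%, median 4.40). Col1a1, a chain of type I collagen (chr11:94827050-94843868), had 75.7, 30.4 and 47.7 CPM in HepOrgs and 794, 1578 and 72.9 CPM in fibrotic-like assembloids (4.01, SE 1.05, adjusted p = 0.0369). The value of fibrotic-like replicate 3 lay within the HepOrg range, so the groups overlapped. Col1a2 (4.51), Col3a1 (4.40) and Col6a2 (5.01) showed the same order of libraries, with replicate 2 highest and replicate 3 lowest. The receptor Pdgfrb had 1.76, 0.401 and 0.413 against 28.8, 60.3 and 4.51 CPM (5.18, SE 1.12, adjusted p = 0.0231).

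The genes by which the portal mesenchyme was sorted gave different pictures. Ly6a (SCA1) had 11.3, 15.8 and 20.7 CPM in HepOrgs and 92.5, 146 and 514 CPM in fibrotic-like assembloids (4.0, SE 0.73, adjusted p = 0.0155), highest in replicate 3. Pdgfra had 4.9, 0.368 and 0.413 against 32, 123 and 6.71 CPM and just missed the threshold (4.83, SE 1.47, adjusted p = 0.0543). The intermediate filament genes Vim and Des did not pass either (adjusted p = 0.0554 and 0.333). Without fibrotic-like replicate 3, 8 of the 9 markers passed, and without replicate 1, 1 did, while none of the 6 called genes passed without any single HepOrg library.

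Matrix genes rose across classes. Of 9 fibril-forming collagens 5 were higher (median 3.99), of 21 basement membrane genes 13 (median 1.98), and of 20 elastic fibre and proteoglycan genes 9 (median 3.94), with none lower in these 3 lists. Col5a1, which nucleates collagen fibrils, rose by 4.16. Among basement membrane genes the laminin chains Lama3 (5.08) and Lamb2 (1.78) and the heparan sulphate proteoglycan Agrn (1.11) rose, and Lama1 had 2, 1 and 0 counts in HepOrgs and 686, 729 and 193 counts in fibrotic-like assembloids. Nid1 (nidogen) had 48, 76.9 and 68.7 against 356, 361 and 16.6 CPM and did not pass (adjusted p = 0.169). In CPM its order of fibrotic-like libraries was that of the mesenchyme and hepatocyte marker sums, and the reverse of the cholangiocyte sum.

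Of the 13 other collagens, 5 were higher (38.5%, against 14.6% of all genes) and 1 lower (7.69%, against 10.9%), with a median of 2.46. Under a filter of at least 10 counts in every library that median was −0.21. The lower gene was Col18a1, a basement membrane collagen that hepatocytes express, with 64.1, 81.3 and 63.5 CPM in HepOrgs and 14.8, 20.5 and 33.3 CPM in fibrotic-like assembloids (−1.59, SE 0.32, adjusted p = 0.0204). In the elastic fibre and proteoglycan list the fibulin Fbln1 (6.53), the hyaluronan synthase Has2 (5.86), Mfap5 (7.85) and biglycan (Bgn, 3.70) rose. Lumican (Lum) had 19.3, 0.234 and 0.923 against 158, 525 and 20.4 CPM and did not pass (adjusted p = 0.0863).

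Collagen processing and crosslinking was less uniform, with 8 of 25 genes higher (32%, against 14.6% of all genes), 1 lower (4%, against 10.9%) and a median of 1.30. The procollagen protease Adamts2 (5.56), the lysyl oxidase Loxl1 (5.08) and the collagen chaperone Serpinh1 (4.47) rose. Serpinh1 had 2.47, 1.34 and 0.632 CPM in HepOrgs and 32, 53.9 and 11.9 CPM in fibrotic-like assembloids. Tgm2, a crosslinking transglutaminase abundant in hepatocytes, fell from 396, 522 and 382 to 60.1, 65.6 and 24.1 CPM (−3.10, SE 0.42, adjusted p = 0.00856). Of the 13 matrix genes named that passed, 13 did so without fibrotic-like replicate 3, 6 without replicate 1 and 3 without HepOrg replicate 2.

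Genes for matrix breakdown rose beside those for deposition. Of 19 metalloproteases and inhibitors 11 were higher and none lower (57.9%, median 3.76). Mmp3 (stromelysin, chr9:7445822-7455975) had 13.5, 2.54 and 2.67 CPM in HepOrgs and 337, 567 and 129 CPM in fibrotic-like assembloids (5.81, SE 0.97, adjusted p = 0.013). The gelatinase Mmp2 (5.14), the collagenase Mmp13 (5.74), the membrane protease Mmp14 (1.18), the aggrecanase Adamts5 (7.12) and Adam12 (6.26) rose. Timp2, an inhibitor of these enzymes, had 5.05, 2.57 and 3.43 against 111, 160 and 108 CPM (5.12, SE 0.34, adjusted p = 0.00428), with little spread in either group. Mmp7, an epithelial protease, had 1.35, 11 and 11.2 against 306, 3.96 and 84.8 CPM and did not pass (adjusted p = 0.0867). Timp1, an inhibitor linked to fibrosis, was listed at 0 in every library.

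Of 19 fibroblast activation genes, 12 were higher and 1 lower (63.2% and 5.26%, median 3.29). Postn (chr3:54268501-54298471) had 28, 1 and 5 counts in HepOrgs and 7608, 7991 and 3486 counts in fibrotic-like assembloids (8.44, SE 0.97, adjusted p = 0.00712). Cdh11, a mesenchymal cadherin the study tested by knockdown (chr8:103358726-103512687), had 1.05, 0.435 and 0.0486 against 18.5, 81.9 and 9.77 CPM (6.17, SE 1.27, adjusted p = 0.0206). Acta2, the smooth muscle actin of myofibroblasts, rose by 4.99, with 48.4 CPM in replicate 1 against 9.64 and 8.9 CPM in replicates 2 and 3. Its order of libraries therefore differed from that of the collagens.

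Fibronectin (Fn1), which hepatocytes also secrete, had 5030, 4636 and 5538 CPM in HepOrgs and 2588, 3746 and 863 CPM in fibrotic-like assembloids (adjusted p = 0.193). Of the 11 remodelling and activation genes named that passed, the collagen receptor Ddr2 (4.36) included, 10 did so without fibrotic-like replicate 3, 4 without replicate 1 and 3 without HepOrg replicate 2.

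**Figure D2:**
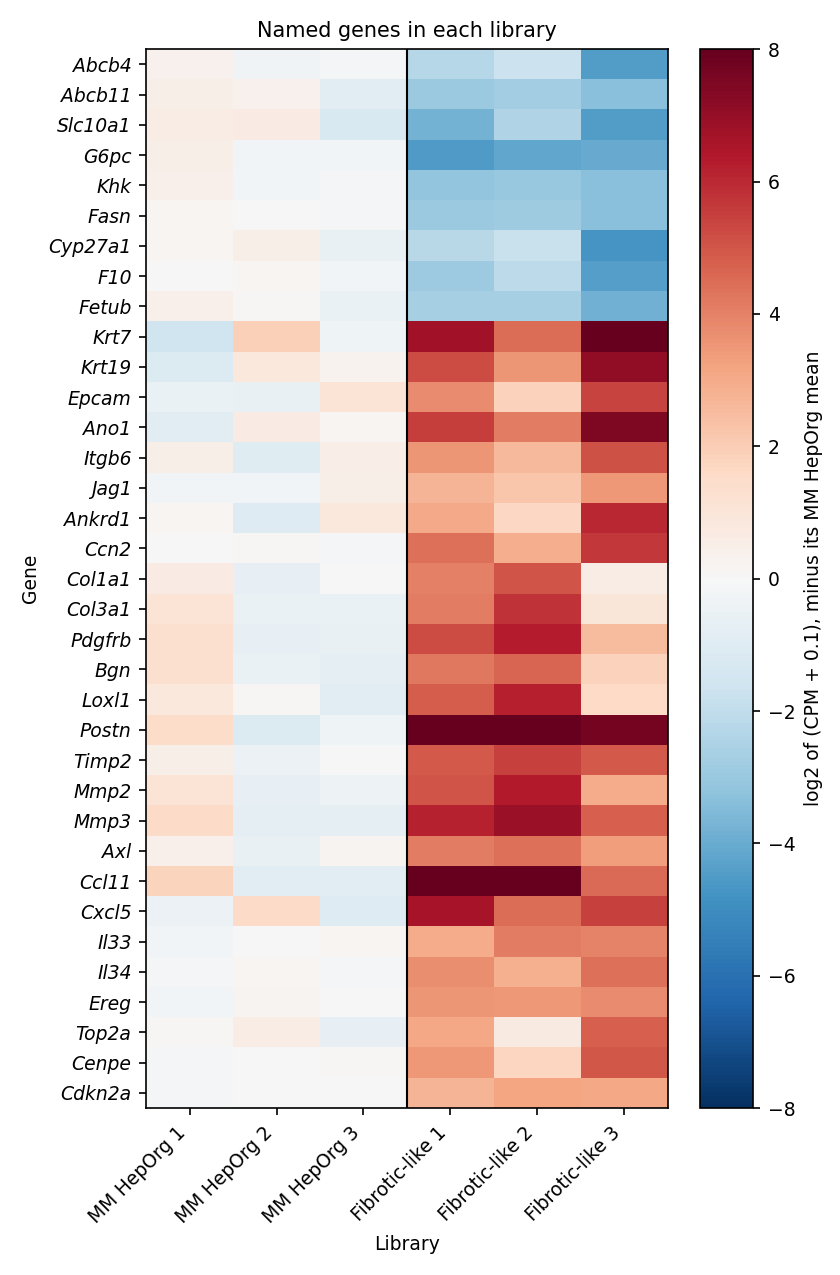
Colour gives log2(CPM + 0.1) of each library minus the mean of the 3 MM HepOrg libraries, saturating beyond the ends of the scale, for genes named in the text (rows) in the 3 HepOrg and 3 fibrotic-like libraries (columns). Fibrotic-like replicate 3 is the palest of its group for Col1a1, Col3a1 and Pdgfrb (72.9, 106 and 4.51 CPM) and the strongest for Krt7, Krt19 and Ccn2 (2872, 1144 and 1229 CPM).

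The interaction list held 15 genes that the study named for the fibrotic-like state. They were ligands, receptors and adhesion genes for cell contacts, and also the secreted metalloproteases Mmp2 and Mmp3. Since they were chosen on assembloids of the same study, their direction is not independent evidence. Of the 14 with counts, 9 were higher and none lower (64.3%, median 4.01). Ccl11 (eotaxin, chr11:81948618-81953781) had 22, 0 and 0 counts in HepOrgs and 6174, 15155 and 258 counts in fibrotic-like assembloids (adjusted p = 0.0241). The chemokines Cxcl1 (0.43, adjusted p = 0.428) and Cxcl12 (1.52, adjusted p = 0.279), the Axl ligand Gas6 (0.61, adjusted p = 0.324) and the Timp1 receptor Cd63 (−0.24, adjusted p = 0.732) did not pass. Cxcl12 had 75.9, 39.1 and 21 CPM against 76.6, 293 and 16.3 CPM, so that it stood out in replicate 2 only. The receptor Axl thus rose while the level of its ligand Gas6, 239, 246 and 149 against 271, 518 and 169 CPM, was within the spread of the libraries.

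Chemokines and cytokines were raised in part. Of 20 chemokine ligands 6 were higher (30%, against 14.6% of all genes) and 1 lower (5%, against 10.9%), with a median of 1.59. The neutrophil chemokine Cxcl5 had 6.25, 25.4 and 4.28 CPM in HepOrgs and 853, 194 and 403 CPM in fibrotic-like assembloids (5.34, SE 0.96, adjusted p = 0.0153). Ccl20 (4.12), which attracts lymphocytes and dendritic cells, was high in replicates 1 and 3 and low in replicate 2 (29.1, 1.05 and 21.9 CPM), and the monocyte chemokine Ccl7 (3.75) was highest in replicate 2. Ccl6 moved the other way, from 1064, 19 and 200 counts to 0, 0 and 6 counts.

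Of 15 cytokines 10 were higher and none lower (66.7%, median 2.58). The alarmin Il33 had 3.92, 4.68 and 4.98 CPM in HepOrgs and 36.2, 79.1 and 71.8 CPM in fibrotic-like assembloids (3.80, SE 0.35, adjusted p = 0.00511). Il34 (3.94), a ligand of the macrophage growth factor receptor, and Tnfsf13b (5.46), the B cell factor BAFF, rose. The granulocyte factor Csf3 had 2, 0 and 1 counts against 615, 73 and 1962 counts, and Csf2 had 2, 1 and 0 against 257, 128 and 119 counts. Csf3 had the order of the cholangiocyte marker sum across the fibrotic-like libraries, the reverse of the mesenchyme and hepatocyte sums in CPM. Without fibrotic-like replicate 1, 8 of the 15 cytokines still passed.

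Of 22 TGF-β pathway genes, 8 were higher and 1 lower (median 1.23, 4.55% lower against 10.9% of all genes). The ligand Tgfb3 had 0.564, 0.802 and 0.607 CPM in HepOrgs and 13.8, 6.63 and 15.6 CPM in fibrotic-like assembloids (4.21, SE 0.44, adjusted p = 0.00611), and the latent TGF-β binding protein Ltbp1 (4.52) and the BMP antagonist Grem1 (6.51) rose. Of 28 other growth factor genes 6 were higher (21.4%, against 14.6% of all genes) and 2 lower (7.14%, against 10.9%), with a median of 0.94. Fgf10, a mesenchymal growth factor, had 0 counts in every HepOrg library and 637, 860 and 15 counts in fibrotic-like assembloids (adjusted p = 0.0394), so that replicate 3 lay far below replicates 1 and 2. Igf1r (5.40), Igfbp7 (5.02) and epiregulin (Ereg, 3.68) rose.

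Epiregulin is a ligand of the EGF receptor, which itself was lower. Ereg had 1.45, 2.01 and 1.7 CPM in HepOrgs and 20.5, 20 and 24.6 CPM in fibrotic-like assembloids (SE 0.25, adjusted p = 0.00428), with nearly equal values within each group. Egfr, which hepatocytes express strongly, had 641, 559 and 383 against 209, 245 and 170 CPM (−1.33, SE 0.28, adjusted p = 0.021). On the TPM scale Egfr had −0.36 and did not pass (adjusted p = 0.207, limma). The hepatocyte stress hormone Fgf21 fell from 142, 81.3 and 124 to 8.58, 15.5 and 15.5 CPM (−3.11, SE 0.34). Of the 16 signalling genes named that passed, 15 did so without fibrotic-like replicate 3, 10 without replicate 1 and 8 without HepOrg replicate 1.

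**Figure D3:**
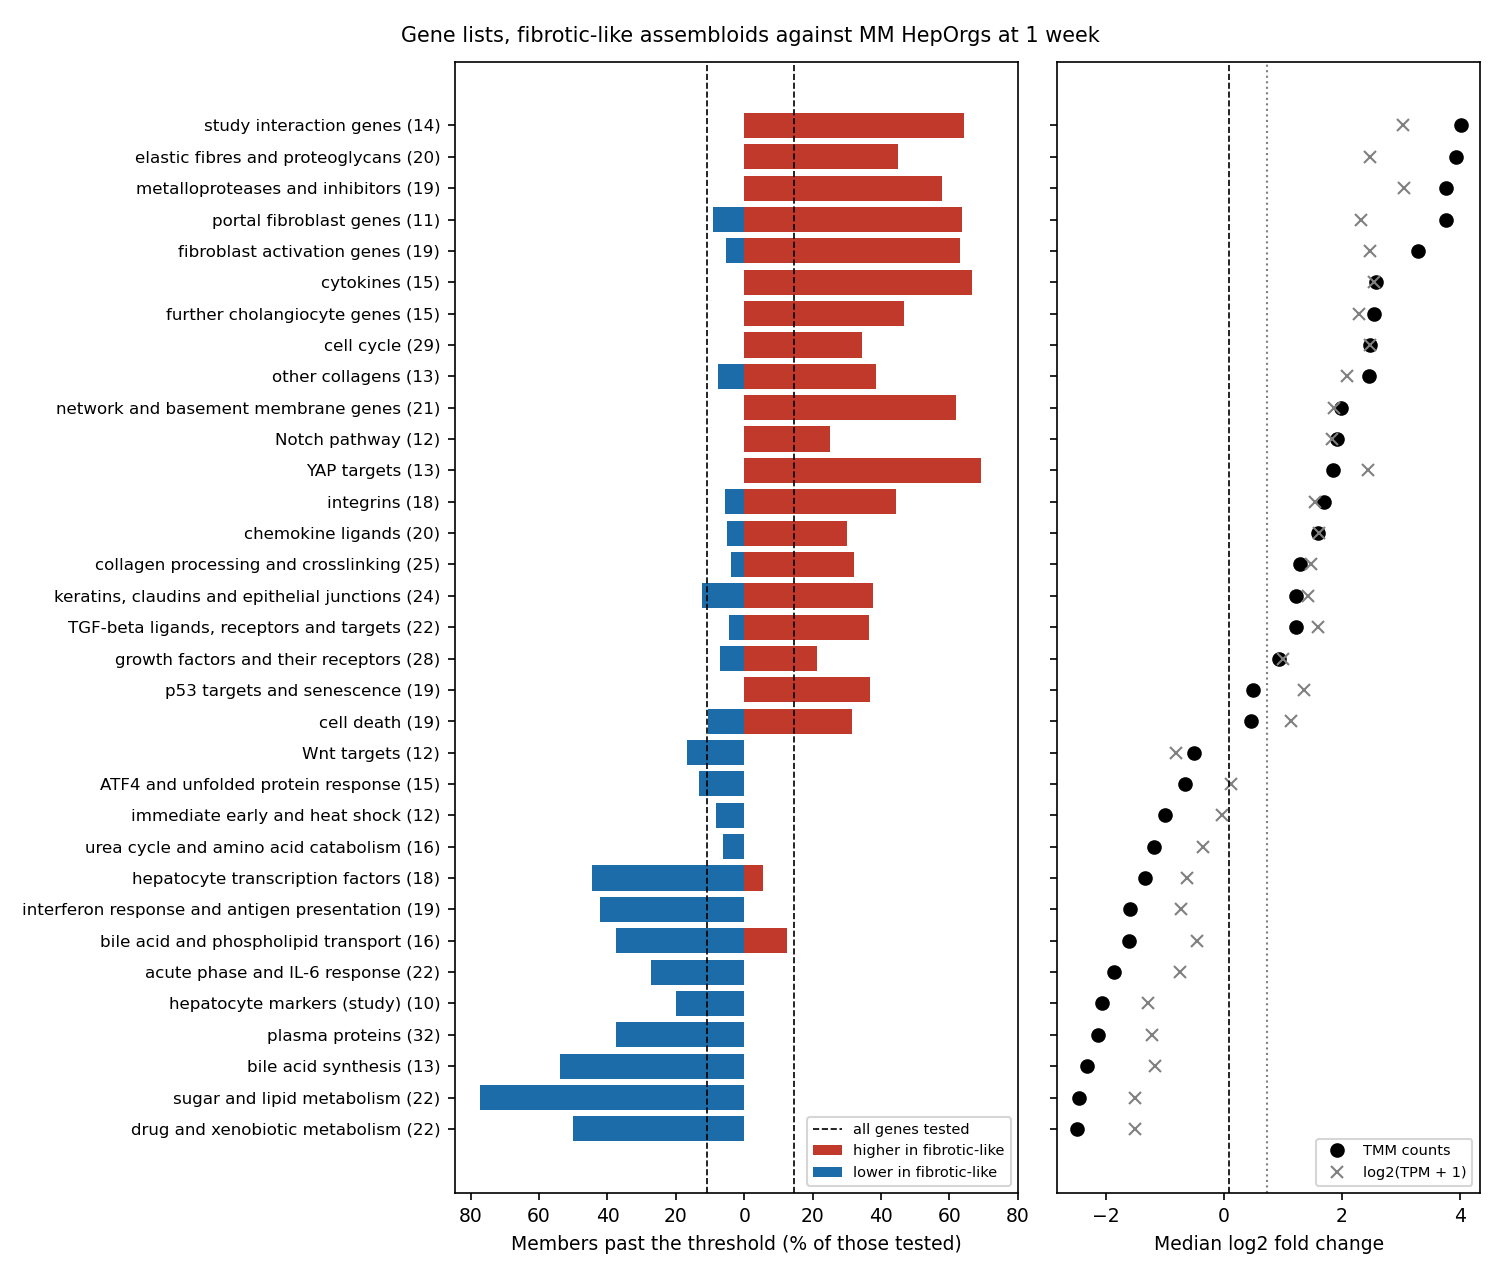
Left, share of the members of each gene list shown that were higher (red, to the right) or lower (blue, to the left) in fibrotic-like assembloids, in percent of the members tested (number in brackets), with dashed lines at 14.6% and 10.9% for all genes. Right, median log2 fold change of each list on TMM-scaled counts (dots, dashed line at 0.09 for all genes) and on log2(TPM + 1) (crosses, dotted line at 0.73 for all genes), with hepatocyte lists at the low end and fibroblast, matrix and interaction lists at the high end. Only lists with at least 10 members tested are shown, without the mitochondrially encoded genes. The study's cholangiocyte and mesenchyme markers and the fibril-forming collagens, with fewer members tested, are among those left out.

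Interferon response and antigen presentation genes were lower. Of 19, 8 were lower and none higher (42.1%, median −1.58). Irf7, the master factor of the interferon response, had 98.6, 80.1 and 36 CPM in HepOrgs and 7.94, 9.73 and 5.54 CPM in fibrotic-like assembloids (−3.19, SE 0.43, adjusted p = 0.0085). Ifit1 (−2.34), the tetherin gene Bst2 (−1.96) and the immunoproteasome subunit Psmb9 (−1.82) fell. The class I gene H2-K1 had 1559, 1665 and 2000 against 611, 701 and 238 CPM (−1.74, adjusted p = 0.0339), and H2-D1 did not pass (−1.43, adjusted p = 0.0941). Class I genes are highly similar, and their reads may be shared. Of the 5 genes named that passed, 3 did so without fibrotic-like replicate 3, 2 on the TPM scale and 1 without fibrotic-like replicate 1.

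Cell cycle genes rose unevenly among the libraries. Of 29, 10 were higher and none lower (34.5%, against 14.6% of all genes, median 2.48). In that direction 15 of the 29 did not overlap between the groups, as was the case for 26.2% of all genes tested. The mitotic topoisomerase Top2a had 3.48, 5.01 and 2.06 CPM in HepOrgs and 28.9, 5.56 and 93 CPM in fibrotic-like assembloids (3.62, SE 1.00, adjusted p = 0.0418). Cenpe (4.14), Kif11 (3.42) and Ube2c (3.25), all of mitosis, had the same order, with fibrotic-like replicate 3 highest and replicate 2 lowest. The replication genes Mcm7 (1.59) and Pcna (1.33, adjusted p = 0.085) changed less. The summed level of the 30 listed genes was 755, 308 and 1457 CPM in fibrotic-like assembloids and 227, 278 and 220 CPM in HepOrgs, in the same order as the cholangiocyte marker sum of the fibrotic-like libraries, and which cells cycled was not measured. Only 4 of the 29 passed without fibrotic-like replicate 3 and none without replicate 1, while DESeq2 called 26.

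Senescence and death genes gave a mixed picture. Of 19 p53 targets and senescence genes 7 were higher and none lower (36.8% higher, against 14.6% of all genes, median 0.49). Cdkn2a, a cell cycle inhibitor locus used as a mark of senescence, had 6, 5 and 7 counts in HepOrgs and 127, 119 and 128 counts in fibrotic-like assembloids (chr4:89192708-89212890, 3.61, SE 0.44, adjusted p = 0.00749), nearly the same in all libraries of a group. Its neighbour Cdkn2b (1.86), the BH3-only gene Pmaip1 (1.97) and Ccng1 (1.74) rose. Of 19 cell death genes 6 were higher (31.6%) and 2 lower (10.5%, near the 10.9% of all genes), with a median of 0.47. The survival factor Bcl2 (4.70) and the necroptosis kinase Ripk3 (2.62) were higher, and Acsl4, which favours ferroptosis, was lower (−1.46). Ripk3 had 3.7, 3.21 and 3.16 against 23.2, 24.3 and 13.6 CPM.

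Stress genes mostly did not pass. Of 12 immediate early and heat shock genes 1 was lower (8.33%, against 10.9% of all genes), Egr1 (−1.79, adjusted p = 0.0464). Of 15 ATF4 and unfolded protein response genes 2 were lower (13.3%, near the share of all genes). Chac1, which degrades glutathione, fell from 146, 72.7 and 96.8 to 9.87, 12.2 and 12.3 CPM (−3.18, SE 0.30, adjusted p = 0.00511), and the serine synthesis gene Psat1 fell by 1.58. The medians of these 2 lists (−1.0 and −0.65) turned to 0.04 and 0.20 on log2(TPM + 0.1). Of the 15 cell cycle, senescence, death and stress genes named that passed, 12 did so without fibrotic-like replicate 3, 5 without replicate 1 and 2 without HepOrg replicate 1. Of the 13 mitochondrially encoded genes 2 were lower (15.4%, against 10.9% of all genes, median −0.84), and this median was 0.07 on both TPM scales.

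Markers of cells that were not added were examined in the same libraries. Of 8 endothelial markers 3 passed the filter on low counts and none was called, and the whole list summed to at most 2.92 CPM in any library. Of 11 immune markers 3 passed that filter and 1 was lower: Cd68, a lysosomal protein of macrophages, had 32.2, 17.7 and 53.4 CPM in HepOrgs and 1.66, 2.07 and 3.6 CPM in fibrotic-like assembloids (−3.79, SE 0.52, adjusted p = 0.00873). The pan-leukocyte gene Ptprc and the macrophage gene Adgre1 had at most 5 and 14 counts in any of the 6 libraries, and Clec4f, which defines Kupffer cells, and Cd3e, which defines T cells, had 0. Lyz2 had 51.6, 6.85 and 5.39 against 2.44, 12.5 and 0.493 CPM (adjusted p = 0.279). The whole immune list summed to 89.8, 27.1 and 60.9 CPM in HepOrgs and 6.89, 17.2 and 6.66 CPM in fibrotic-like assembloids, and its part in the lower interferon genes was not tested.

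Among mesenchymal cell types of the liver, 7 of 11 portal fibroblast genes were higher and 1 lower (63.6% higher, against 14.6% of all genes, median 3.76). Of 7 stellate cell genes 1 was higher (14.3%, near the share of all genes, median 2.34). In the smooth muscle list 1 of 3 genes was higher and in the mesothelial list 1 of 4, too few genes to compare with that share. Differences between these lists were not tested. Of the 7 stellate cell genes 6 had positive fold changes and 3 were higher with DESeq2 or without fibrotic-like replicate 3, and their summed TPM was 28.6, 22.9 and 75.9 in HepOrgs against 523, 544 and 474 in fibrotic-like assembloids. The portal fibroblast gene Mfap4 had 1, 0 and 0 counts in HepOrgs and 389, 234 and 25 counts in fibrotic-like assembloids. Entpd2, an ectonucleotidase that marks portal fibroblasts in tissue, went the other way, with 36.1, 34.3 and 57.7 against 9.25, 10.9 and 7.24 CPM (−2.20, SE 0.28, adjusted p = 0.00791). The stellate cell gene that passed was Ecm1 (2.82). Msln, a mesothelial gene that activated portal fibroblasts can also express (chr17:25967312-25985619), had 87.4, 77.8 and 2519 CPM in fibrotic-like assembloids and at most 3.74 CPM in HepOrgs (9.27, SE 2.26, adjusted p = 0.0308). Replicate 3 was again the library apart, and without it Msln had a log2 fold change of 5.86 (adjusted p = 0.0169).

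The other assembloids of the series place these values. On the deposited TPM scale Col1a1 was 434, 884 and 61 in fibrotic-like assembloids at 1 week and 10, 156 and 30.3 in homeostatic assembloids at 1 week. Krt19 was 359, 113 and 2050 against 9.19, 2006 and 131 TPM, and Alb was 3257, 5522 and 654 against 3949, 381 and 3460 TPM. Homeostatic replicate 2, with 8465 detected genes, held little hepatocyte RNA and the most Krt19 of its group. In that comparison edgeR called 0 of 13446 genes (0%), with 553 at an unadjusted p under 0.05, while DESeq2 called 200 and voom with library quality weights called 1237. The log2 fold changes were 2.62 for Col1a1 (SE 1.20), −0.25 for Krt19 and −0.65 for Alb, each with an adjusted p of 0.997, and the last 2 changed sign with the setting.

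After 2.5 weeks, fibrotic-like assembloids still held these transcripts, though the comparison across weeks was not tested. Col1a1 was 144, 972 and 517 TPM, Krt19 192, 2734 and 188 TPM and Alb 4570, 2922 and 7328 TPM. Abcb11 was 3.69, 0.459 and 4.6 TPM at 2.5 weeks, 0.989, 1.17 and 1.15 TPM at 1 week and 5.64, 5.81 and 3.25 TPM in MM HepOrgs. Hamp was 48.8, 33.3 and 3.39 TPM at 2.5 weeks against 0.567, 0.623 and 0.974 TPM at 1 week. Both hepatocyte genes thus lay higher in at least 2 of the 3 late libraries than in any early one. Cyp2e1 stayed low, at 13.2, 0.956 and 22.6 TPM against 681, 628 and 179 TPM in HepOrgs.

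**Figure D4:**
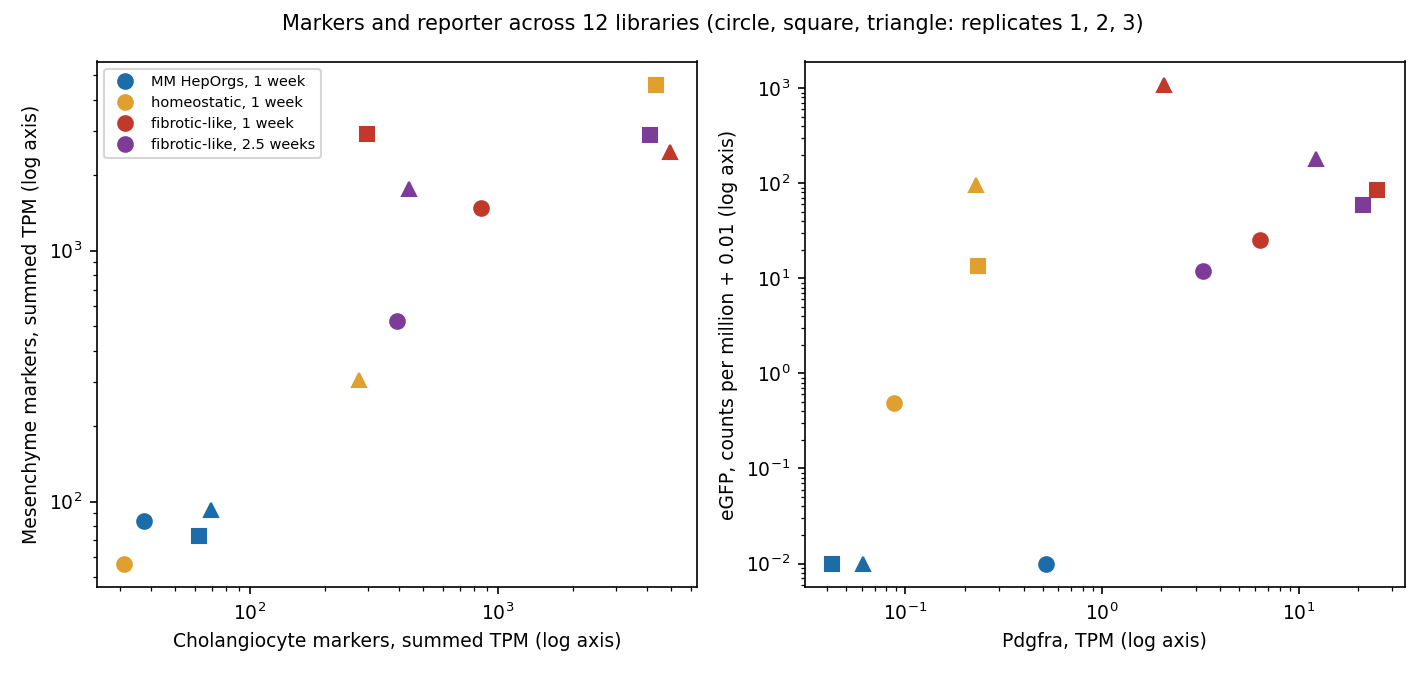
Left, summed TPM of the mesenchyme markers against that of the cholangiocyte markers, and right, eGFP level (CPM scaled to the library total, plus 0.01) against Pdgfra TPM, all on log axes, with 1 point per library for MM HepOrgs, homeostatic and fibrotic-like assembloids at 1 week and fibrotic-like assembloids at 2.5 weeks. Fibrotic-like replicate 3 at 1 week (red triangle) has the most eGFP beside a Pdgfra level of 2.06 TPM, below the 6.4 and 25.2 TPM of its group, and homeostatic replicate 2 (yellow square) lies beside the marker-rich fibrotic-like libraries on the left.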

How the data were processed

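RNA from whole cultures was measured by SMARTseq2, a full-length polyA method without strand or molecular identifiers. The authors aligned reads with STAR to GRCm39 and deposited raw counts per gene from featureCounts, together with TPM, whose gene lengths lay within 5% of the gene span (introns included) for 80.8% of 21705 matched genes. The feature and strand settings of the counting are not given in the sources used here. The table held 37 libraries, of which 27 matched labels and 10 were not used. Groups came from the sample titles.

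Genes were filtered with filterByExpr (at least 10 counts, 15 in total), scaled by TMM and tested with the edgeR 4.0.16 quasi-likelihood test in R 4.3.3 on the 6 libraries, with Benjamini-Hochberg adjustment at 0.05 and the 2 reporter rows left out. DESeq2 1.42.0, limma 3.58.1 on the authors' TPM (pseudocount 1 or 0.1, at least 1 TPM in 3 libraries) and voom served as alternatives. Totals of 38218834 to 65348596 counts per library set the precision of low genes, and counting error is part of the spread between replicates. On simulated data with 200 genes changed by a log2 fold of 2, edgeR recovered 76.5% of them and called 5 unchanged genes in the comparison with HepOrgs. DESeq2 recovered 84% of them and called 42 unchanged genes, so its larger counts above may hold more false calls. Whether these figures hold for the measured libraries, whose marker sums differed within each group, was not tested.

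The comparison and the 42 gene lists were chosen with earlier results of these data known. Named genes were the study's cell markers and interaction genes, up to 4 highest and 4 lowest called members and the 3 most abundant of each list, and the 5 highest and 5 lowest called genes whose groups did not overlap and whose average log2 CPM reached 5. Genes outside this rule are Ptprc, Adgre1, Clec4f and Cd3e, given for their defining role, and some genes that the rule names are not reported here. Positions are those of GRCm39, and promoters are RefSeq's.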

Additional observations from a re-analysis of the deposited data

Results flagged for a closer look

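Transcripts of the 2 fluorescent reporters, which no test above used, appeared in the fibrotic-like libraries and in none of the MM HepOrg controls. eGFP reached 40767 counts in fibrotic-like replicate 3, against 1647 and 3915 in replicates 1 and 2 and 0 in each HepOrg library. tdTomato reached 1264 counts in fibrotic-like replicate 1, against 107 and 489 in replicates 2 and 3 and 0 in each HepOrg library. The eGFP count of replicate 3 stood beside 408 counts of Pdgfra, the gene whose locus carries the reporter in the mesenchyme described by the study, and beside 2488 and 6683 counts of Pdgfra in replicates 1 and 2. Which cells carried the reporter in each library was not tested.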

How the results depend on the processing

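The count of 3438 called genes became 5272 with DESeq2, 7408 with voom and library quality weights (added after the data were seen), 1068 with all 27 libraries in 1 fit, and 0 with the 9 libraries kept 1 week in MM, where the homeostatic replicate 2 library was included. With 1 library left out it ranged from 391 to 4086. Size factors by RLE gave 3396, no filter 2977, 10 counts in every library 2892, log2(TPM + 1) 4397, log2(TPM + 0.1) 4673 and a limit on the log2 fold change of at least 1 2774. Replicate numbers did not pair the libraries (correlations of same-numbered deviations 0.104, −0.113 and 0.143), and with the replicate number as a block 2460 genes were called. The count of 0 against homeostatic assembloids was 200 with DESeq2, 910 with all 27 libraries and 1237 with voom and quality weights, and 0 with each library left out and with the block. Over 171 named genes in the comparison with HepOrgs, of 2832 values 2062 kept direction and side of the threshold, 664 lost and 95 gained the call, and 11 changed sign, none of them for a called gene. Those were Apoa1 (0.15 on both TPM scales), Hnf4a (0.38 and 0.40 on the TPM scales), Spp1 (from −0.28 without HepOrg replicate 3 to 0.43 without fibrotic-like replicate 3, with −0.09 and −0.16 without fibrotic-like replicate 1 or 2) and Cd63 (0.49 on both TPM scales, from −0.60 to 0.15 with 1 library left out, and 0.08 with voom). Against homeostatic assembloids Krt19 changed sign with 10 counts in every library (0.07), on the TPM scales (1.65 and 1.70), with the replicate block (1.89), and with voom (1.77), with −1.62 to 2.59 over the libraries left out (2.59 without homeostatic replicate 2, 0.02 and 0.24 without fibrotic-like replicate 1 or 2), and Alb on both TPM scales (0.39) and without homeostatic replicate 1 (0.20, the range over the libraries left out being −1.37 to 0.20). Medians changed sign for mitochondrially encoded genes (0.07 on both TPM scales), other collagens (−0.21 with 10 counts in every library), immediate early genes (0.04 on log2(TPM + 0.1)) and ATF4 and unfolded protein response genes (0.13 and 0.20 on the TPM scales). The cause of these changes was not tested. Depth limits only genes with a few counts.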

Other observations

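Some genes central to liver fibrosis had no counts in any of the 27 libraries. Of the genes in the lists, 17 were listed at 0 throughout, and for 15 of these every exon lay within the span of another gene of the table in GENCODE M39. They included the protease inhibitors Timp1, within Syn1, and Timp3, within Syn3, the chemokine Cxcl10, within Art3, the class I light chain B2m, within Patl2, the proteoglycans Ogn and Aspn, within Cenpp, and the growth factor Fgf7, within Fam227b. They were chosen for mention after their values were seen. Over the whole table, 3223 of 21705 genes with a position were at 0, and 736 of these (22.8%) had all exons within another gene's span, against 1.68% of the 18482 other genes. Of the 1046 genes whose exons all lay within another span, 70.4% were at 0. A listed 0 for such a gene in this table does not show whether the gene is transcribed.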
